A study of Mus musculus with 8 samples.

Results

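Mt1, Mt2 and Mt3 are the metallothionein genes described here, 3 of the 54232 genes that the deposited tables list, and they were chosen by symbol. Each symbol stands in the tables once, under ENSMUSG00000031765 for Mt1, ENSMUSG00000031762 for Mt2 and ENSMUSG00000031760 for Mt3. Single-nucleus RNA sequencing was run on a cube of perilesional forebrain, 2 mm a side, taken at 10 weeks of age from Swiss Webster mice, all male. The mice had control surgery, BCAS surgery, TBI (traumatic brain injury) surgery or both, and each of these 4 groups holds 2 libraries. The labels give BCAS only as an abbreviation, which the title of the study ties to cerebral hypoperfusion, and the time from surgery to collection is not given in the sources used here. The labels call the libraries of a group biological replicates ("biol rep"), but whether they come from separate mice is not stated. Every p-value below therefore measures the spread between these libraries.

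Metallothioneins are small cysteine-rich proteins that bind zinc and copper ions. Mt1 and Mt2 are induced by zinc through the transcription factor MTF1, which binds metal response elements in their promoters, and by glucocorticoids, inflammation and oxidative stress. Mt3 was first known as a growth inhibitory factor of brain, is made in astrocytes and in neurons that store zinc, and is little induced by metals. A further gene of the family, Mt4, belongs to squamous epithelium and had 2 UMIs (unique molecular identifiers, counts of captured RNA molecules) in all 45560 nuclei kept, against 13877 of Mt1, 3628 of Mt2 and 10031 of Mt3.

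The genes lie side by side on chromosome 8 of GRCm38 in GENCODE M21, all on the plus strand, Mt3 at chr8:94152607-94154146, Mt2 at chr8:94172664-94173568 and Mt1 at chr8:94179082-94180327. Each has a main transcript of 3 exons, of 549 bases for Mt1, 511 for Mt2 and 536 for Mt3. Their transcripts share 0 stretches of 31 bases with each other, and the counts of the 3 genes can be told apart on that ground. The antisense gene Gm45774 overlaps Mt2 on the minus strand, from before its start into its last exon (chr8:94170748-94173412), and had 37 UMIs. The 250 bases before each start in RefSeq (GRCm38.p6) are shown, and a link between these bases and the levels was not tested. They span chr8:94178839-94179088 for Mt1, chr8:94172368-94172617 for Mt2 and chr8:94152357-94152606 for Mt3, on the plus strand, 5′ to 3′. Capitals mark matches to the core of the metal response element, TGCACNC or TGCGCNC, on either strand.
Mt1: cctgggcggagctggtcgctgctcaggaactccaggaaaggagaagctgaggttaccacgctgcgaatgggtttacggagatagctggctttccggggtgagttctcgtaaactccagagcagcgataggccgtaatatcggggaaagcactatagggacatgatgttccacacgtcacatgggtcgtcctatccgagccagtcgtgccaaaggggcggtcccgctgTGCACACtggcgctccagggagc
Mt2: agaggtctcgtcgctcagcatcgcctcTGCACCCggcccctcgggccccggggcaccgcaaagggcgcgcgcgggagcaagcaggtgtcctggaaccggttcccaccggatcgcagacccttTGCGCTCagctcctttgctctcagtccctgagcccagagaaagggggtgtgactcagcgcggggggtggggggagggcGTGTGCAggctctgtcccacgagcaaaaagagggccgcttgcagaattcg
Mt3: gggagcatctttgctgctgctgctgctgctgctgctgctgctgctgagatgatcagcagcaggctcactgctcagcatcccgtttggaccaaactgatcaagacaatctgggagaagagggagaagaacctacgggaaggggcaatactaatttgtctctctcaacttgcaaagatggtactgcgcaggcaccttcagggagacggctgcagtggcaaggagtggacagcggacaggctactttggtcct
The window of Mt1 holds 1 match, that of Mt2 holds 3 and that of Mt3 holds 0. Of 32851 promoter windows of this length, 21.4% hold at least 1 match and 1.26% at least 3. With the 50 bases after the start included, the matches number 3 in Mt1, 4 in Mt2 and 1 in Mt3, and 25.7% of all windows then hold at least 1. GENCODE M21 also lists later starts, at chr8:94179211 and chr8:94179241 for Mt1, chr8:94172860 for Mt2 and chr8:94152746 for Mt3. The windows end before these starts, so the counts of matches hold for the stated windows only. A match is a run of letters and no measurement of binding.

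The libraries held 28118725 to 56135192 UMIs. They fall into 2 sets at the largest gap between their totals, each with 1 library of every group. Set 1 is control 1, BCAS 1, TBI 1 and BCAS+TBI 2, with 28118725 to 33363564 UMIs, and set 2 is control 2, BCAS 2, TBI 2 and BCAS+TBI 1, with 42651388 to 56135192. Set 1 had 1.204% to 2.77% of its UMIs in mitochondrial genes and 0.517% to 0.865% in ribosomal protein genes, against 0.511% to 1.04% and 0.242% to 0.293% in set 2. The sets come from sequencing totals and are no groups of the study. Pairs of libraries shared 5 to 20 cell barcodes, at most 0.321% of the smaller library. Nuclei were clustered without the metallothionein genes, and 37 of 43 clusters were named from marker genes as 12 cell classes. The 8 endothelial markers were all highest in endothelial-like nuclei, and 7 of 8 astrocyte markers were highest in astrocyte-like nuclei.

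All 3 genes were highest in astrocyte-like nuclei as named by clusters, whereas Mt1 was highest in endothelial nuclei when each nucleus was assigned by its own markers. Levels are CPM, the UMIs of a gene divided by those of all genes in the same class and library and put on a common scale, and they follow as mean ± SD over 8 libraries. Mt1 reached 540 ± 270 CPM in astrocyte-like nuclei, 305 ± 97.2 in endothelial-like nuclei and 107 ± 56.0 in oligodendrocyte-like nuclei. It was lowest in excitatory neuron-like nuclei, at 21.3 ± 14.5. Mt1 in fibroblast-like (99.8 ± 63.2), mural-like (102 ± 68.6), microglia-like (78.7 ± 48.6) and oligodendrocyte precursor-like nuclei (55.9 ± 36.5) formed the middle of the order.

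Mt2 had a like order at its top, with 180 ± 82.2 CPM in astrocyte-like and 81.8 ± 28.6 in endothelial-like nuclei. In the other 9 classes tested its mean lay between 3.68 and 23.8 CPM. Ependymal-like nuclei had 45.3 ± 35.5 but as few as 12 in a library, so this class entered no test. Mt3 had 189 ± 81.7 CPM in astrocyte-like nuclei and was closer to even in the other classes tested, from 16.9 ± 13.5 in fibroblast-like to 52.8 ± 43.7 in mural-like nuclei. In excitatory neuron-like nuclei, where Mt1 was lowest, Mt3 had 36.1 ± 19.3 CPM, and in endothelial-like nuclei 34.1 ± 27.5 from 39 UMIs in all.

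**Figure D1:**
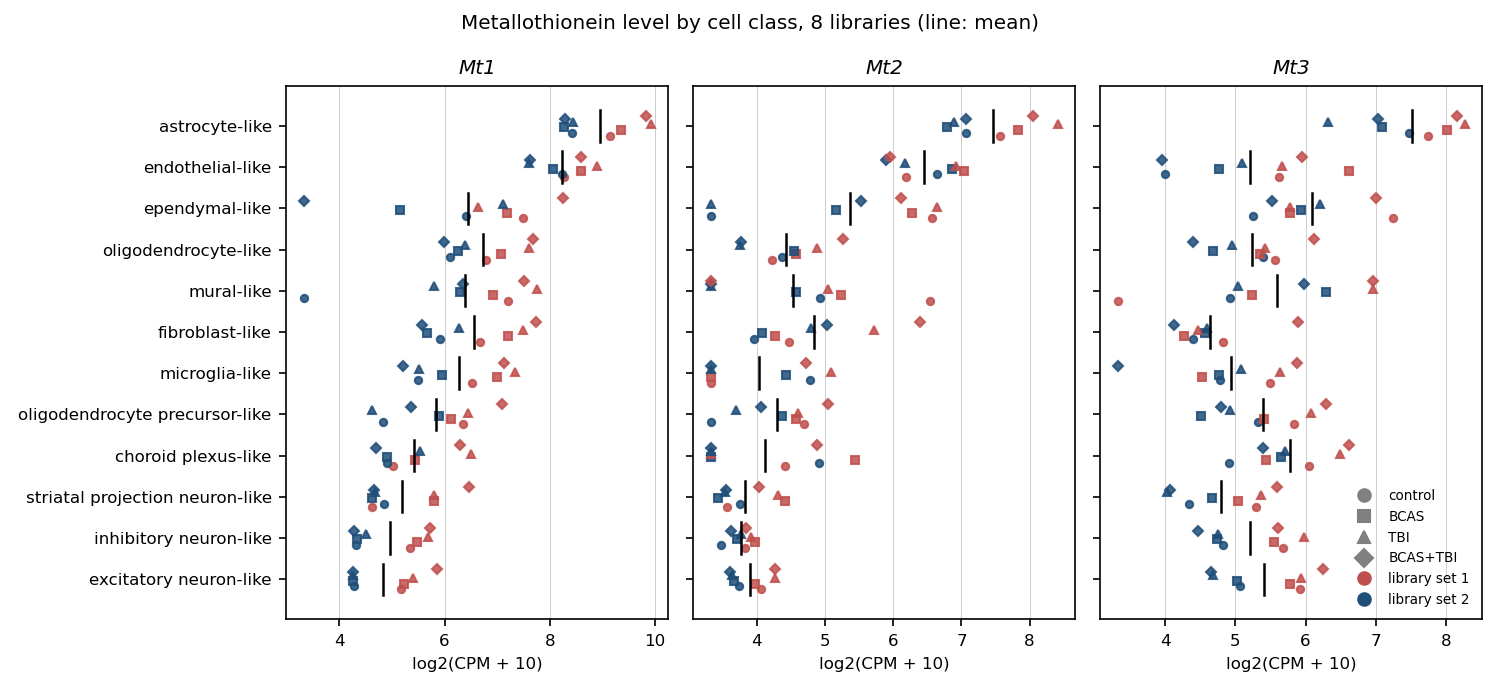
Level of each metallothionein gene, as log2(CPM + 10), in 12 cell classes named by markers (rows), with 1 point per library, shape for the surgery group, colour for the library set and a line for the mean of 8 libraries. Astrocyte-like nuclei have the highest mean in all 3 panels, endothelial-like nuclei come next for Mt1 and Mt2, and set 1 lies to the right of set 2 in most rows.

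Neighbours in the order of levels were compared within libraries, on log2(CPM + 10), with an exact two-sided sign-flip permutation test over 8 libraries. The order came from the same values, so the pairs and the direction of each difference were set by the data tested. Mt1 was higher in astrocyte-like than in endothelial-like nuclei in 8 of 8 libraries, by 0.72 ± 0.37 (log2, mean and SD; exact permutation p = 0.00781, adjusted 0.0781 over 30 neighbour pairs). It was higher in endothelial-like than in oligodendrocyte-like nuclei in 8 of 8 libraries, by 1.51 ± 0.38, and Mt3 was higher in astrocyte-like than in choroid plexus-like nuclei in 8 of 8, by 1.73 ± 0.63, both with that same p. The p of 0.00781 is the smallest that 8 libraries allow, and 0 of the 30 pairs passed the threshold of 0.05 after adjustment. Among 30 pairs, 1 pair at that p could not pass by itself, so this count says little about the order. Mt2 in astrocyte-like nuclei exceeded endothelial-like nuclei in 7 of 8 libraries, by 1.00 ± 0.68 (exact permutation p = 0.0156, adjusted 0.0938). For Mt3 no neighbours below the top differed beyond their spread.

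The place of endothelial-like nuclei depends on how nuclei are assigned. When each nucleus was assigned by its own marker UMIs in place of its cluster, Mt1 had 315 ± 187 CPM in 4198 astrocyte-gated and 358 ± 103 in 1311 endothelial-gated nuclei, and astrocyte-gated nuclei were higher in 2 of 8 libraries. Mt2 had 101 ± 59.6 and 101 ± 27.4 CPM there. Of the endothelial-gated nuclei, 115 belonged to a cluster of 185 nuclei that haemoglobin genes lead (Hbb-bs, Hba-a1), which stayed unnamed, and these gave 35.3% of the UMIs of the gate. That cluster had 618 CPM of Mt1, 182 of Mt2 and 15.6 of Mt3 over all libraries. Ribosomal protein genes held 4.69% and mitochondrial genes 3.70% of its UMIs, against 1.64% and 2.50% in the endothelial-like cluster 5. The ribosomal share was 0.480% and 0.454% in the astrocyte-like clusters 13 and 15. The part of these shares in the result was not tested. Without the haemoglobin-led cluster, Mt1 had 196 ± 60.7 and Mt2 59.6 ± 19.2 CPM in endothelial-gated nuclei. Astrocyte-gated nuclei were then higher in 6 of 8 libraries for each gene. Mt3 remained highest in astrocyte-gated nuclei, at 124 ± 64.1 CPM.

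The mix of the 3 genes differed between classes. Of their summed UMIs, Mt3 made up 58.4% in excitatory neuron-like nuclei (95% Wilson interval 57.2% to 59.5%), 21.0% in astrocyte-like (19.997% to 22.0%) and 6.39% in endothelial-like nuclei (4.71% to 8.62%). Mt2, in turn, held 19.9% of these UMIs in astrocyte-like nuclei, a like share of 21.3% in endothelial-like nuclei and 8.36% in neurons of the excitatory class. The contrast stood in each set: Mt3 made up 56.2% of the UMIs in excitatory neuron-like nuclei of set 1 and 61.7% in set 2, against 9.72% and 4.13% in endothelial-like nuclei. The intervals cover counting error, since UMIs of 1 library share its nuclei.

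**Figure D2:**
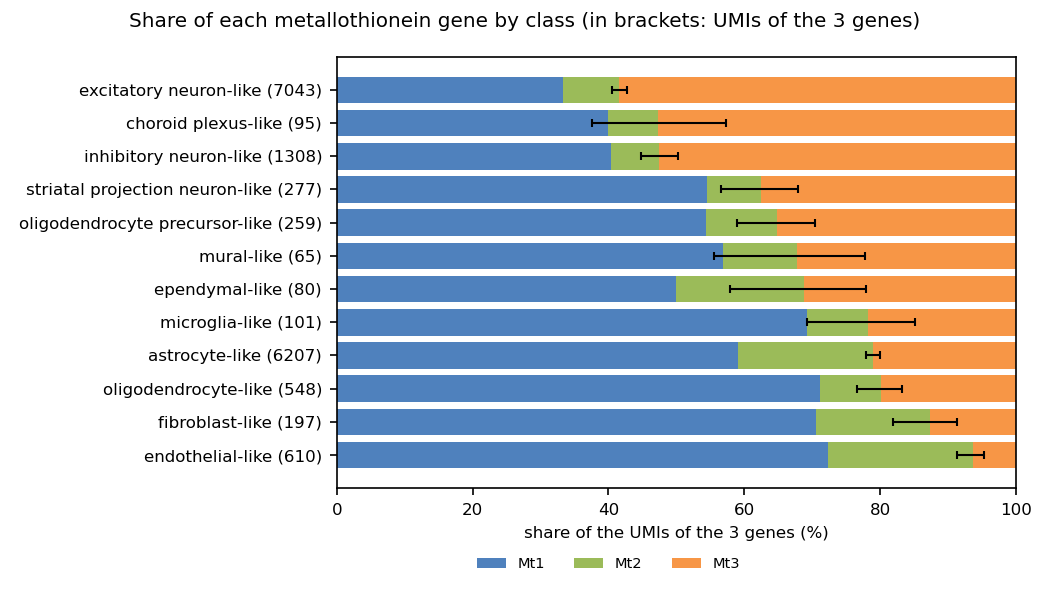
Share of Mt1, Mt2 and Mt3 in the summed UMIs of the 3 genes (x axis, percent) in each cell class, with the summed UMIs in brackets and a 95% Wilson interval at the border of Mt3. The share of Mt3 runs from 6.39% in endothelial-like to 58.4% in excitatory neuron-like nuclei.

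RNA that is free in the suspension also gives UMIs to nuclei that do not express a gene. Nuclei with at least 1 UMI of Mt1 made up 53.8% of astrocyte-like nuclei (median depth 1888 UMIs) and 10.6% of excitatory neuron-like nuclei (median 6362). After each nucleus was thinned to 1000 UMIs, leaving out shallower ones, the shares were 37.5% of 3025 astrocyte-like, 16.5% of 612 endothelial-like and 2.23% of 18256 excitatory neuron-like nuclei. Mt2 was seen in 14.7%, 6.70% and 0.520% of these nuclei, and Mt3 in 16.7%, 2.12% and 3.59%. The lowest thinned share of Mt3 was 1.21%, in fibroblast-like nuclei. No class here is certain to lack metallothioneins, so the low shares of Mt1 and Mt2 in neurons cannot be told apart from free RNA.

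Astrocyte-like nuclei came as a pair of clusters. Cluster 13, with 2257 nuclei, was led by Slc1a2, Aqp4 and Gfap, and cluster 15, with 1089 nuclei, by Slc6a11, Itih3 and Agt. The former had the higher level of all 3 genes in 8 of 8 libraries. Mt1 was at 571 ± 283 against 470 ± 235 CPM, Mt2 at 193 ± 88.2 against 148 ± 67.7, and Mt3 differed most, by 1.54-fold on the log2(CPM + 10) scale against 1.202-fold for Mt1 and 1.28-fold for Mt2. These clusters were set side by side after their levels were seen, and no test is given.

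Among the excitatory neuron-like clusters, the mean of Mt3 over libraries ran from 25.8 ± 18.2 to 69.6 ± 45.7 CPM, and with the libraries pooled its level ran from 18.4 to 65.6. Cluster 40, lowest when pooled, held 14 UMIs of Mt3 in all and averaged 58.9 ± 113 CPM over libraries, so its place is uncertain. The top on both scales belonged to cluster 35, 1254 nuclei led by C1ql3, Trpc6, Smoc2 and Itga8, named here after its value was seen. Its Mt3 level was above that of the whole class in every library, as in control 1 (119 against 50.3 CPM), control 2 (44.3 against 23.3) and BCAS+TBI 2 (146 against 66.0). Ribosomal protein genes held 0.533% of the UMIs of this cluster, the largest share among excitatory neuron-like clusters, and their part in the result was not tested.

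By library, Mt1 in astrocyte-like nuclei was at 552 CPM in control 1 against 331 in control 2, at 647 in BCAS 1 against 298 in BCAS 2, at 954 in TBI 1 against 339 in TBI 2, and at 897 in BCAS+TBI 2 against 304 in BCAS+TBI 1. The high value of each group is its library of set 1, and the 4 groups overlap. With the set 1 library again first, Mt2 was at 179 against 124 CPM for control, 217 against 100.2 for BCAS, 330.2 against 109 for TBI and 255 against 124 for BCAS+TBI. For Mt3 the values were 204 against 168 CPM for control, 248 against 126 for BCAS, 298 against 69.6 for TBI and 277 against 120.4 for BCAS+TBI. Each gene was higher in the set 1 library of every group, and the lowest library of set 1 stood above the highest of set 2. The share of all genes with the sets apart in this way was not counted. In the test below, 33.8% of all pairs of a class and a gene differed between the sets. These values rest on 254 to 572 nuclei and on 37 to 1136 UMIs of the gene per library.

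**Figure D3:**
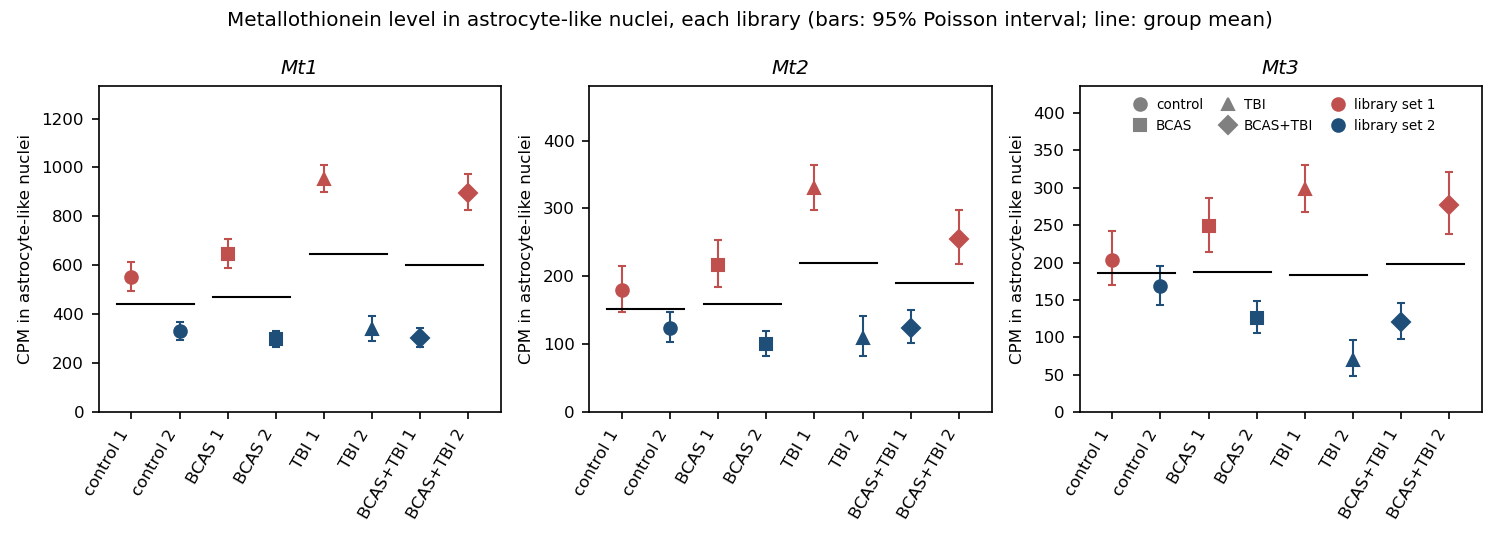
Level of Mt1, Mt2 and Mt3 in astrocyte-like nuclei (CPM, y axis from 0) in each of 8 libraries, with 95% Poisson intervals of the UMI count, a line for the mean of each surgery group and colour for the library set. The 4 libraries of set 1 lie above the 4 of set 2 in each panel, while the surgery groups overlap. The share of all genes with the sets apart in this way was not counted.

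The difference between the sets was tested across all genes and classes. A fit in edgeR (quasi-likelihood test, p-values adjusted by Benjamini and Hochberg over 87539 pairs of a class and a gene, threshold 0.05) held terms for the surgery group and the library set. Of 19 pairs of a metallothionein gene and a class that passed the filter on low counts, 17 were higher in set 1 and 0 lower, where 33.8% of all pairs differed between the sets and 18.6% were higher in set 1. The median log2 fold change of the 19 pairs was 1.28 and that of all pairs -0.0039. A pair of low counts could pass the filter through set 1 alone, so the count covers the pairs that passed and no others. Without the filter 18 of 33 metallothionein pairs were higher in set 1, against 14921 of all 256880 pairs.

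Mt1 in astrocyte-like nuclei averaged 763 ± 194 CPM over the 4 libraries of set 1 and 318 ± 19.9 over those of set 2 (mean ± SD), a log2 fold change of 1.23 ± 0.12 (SE; edgeR adjusted p = 7.13e-08). For Mt2 the values were 246 ± 64.4 and 114 ± 11.6 CPM (1.07 ± 0.14, adjusted p = 2.41e-06), and for Mt3 257 ± 40.7 and 121 ± 40.4 (1.07 ± 0.17, adjusted p = 2.77e-05). In excitatory and inhibitory neuron-like nuclei the levels were far lower, and the fold changes of Mt1 and Mt3 were somewhat larger. As said above, the low shares of Mt1 in neurons cannot be told apart from free RNA. Mt1 in excitatory neuron-like nuclei was at 26.0, 27.4, 32.3 and 48.0 CPM in the set 1 libraries of control, BCAS, TBI and BCAS+TBI, and at 9.37, 9.06, 9.21 and 9.09 in those of set 2. That was a log2 fold change of 1.63 ± 0.14, and Mt3 in the same nuclei differed by 1.28 ± 0.16. Inhibitory neuron-like nuclei had 1.67 ± 0.14 for Mt1 and 1.27 ± 0.14 for Mt3.

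Of the classes tested, endothelial-like nuclei had the smallest fold changes of Mt1 and Mt2 between the sets. Mt1 there, set 1 library first, was at 299.97 against 292 CPM for control, 375 against 257 for BCAS, 466 against 186 for TBI and 374 against 188 for BCAS+TBI, a log2 fold change of 0.81 ± 0.24 (edgeR adjusted p = 0.0173). Mt2 in endothelial-like nuclei, at 86.7 ± 34.4 CPM in set 1 and 77.0 ± 25.8 in set 2, did not pass (0.28 ± 0.31, adjusted p = 0.544), nor did Mt2 in inhibitory neuron-like nuclei (0.79 ± 0.34, adjusted p = 0.0799). Whether the difference between sets is itself different between classes was not tested.

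Genes of other kinds stood apart between the sets as well. Of 780 pairs of a class and a cytosolic ribosomal protein gene, 671 were higher in set 1, with a median log2 fold change of 1.35, close to that of the metallothionein pairs. Mitochondrial genes were higher in 109 of 139 pairs (median 0.96), and haemoglobin genes, which belong to red blood cells, in 27 of 27 (median 2.19). In astrocyte-like nuclei, the ribosomal protein genes together had 5566 to 7863 CPM in set 1 and 2581 to 3231 in set 2. Mt1 per 1000 CPM of these genes was 98.6 to 135 in set 1 and 105 to 115 in set 2, so on that scale the sets overlapped. The same held for Mt2 (32.2 to 46.8 and 33.8 to 45.4) and Mt3 (35.2 to 42.3 and 21.5 to 57.8). Mt1 in excitatory neuron-like nuclei still stood apart, at 6.06 to 8.25 in set 1 and 4.45 to 4.83 in set 2. So did Mt1 in inhibitory neuron-like nuclei, at 6.72 to 8.35 in set 1 and 4.19 to 5.39 in set 2.

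**Figure D4:**
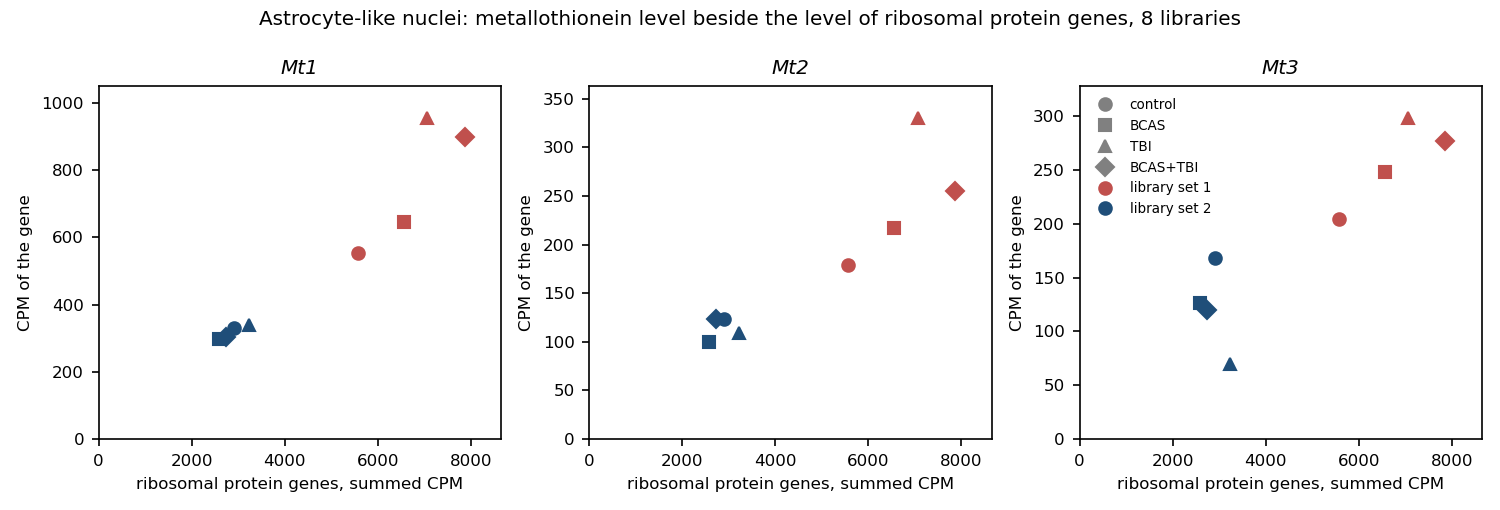
CPM of Mt1, Mt2 and Mt3 in astrocyte-like nuclei (y axes) against the summed CPM of the cytosolic ribosomal protein genes in the same nuclei (x axes), 1 point per library, shape for the surgery group and colour for the library set. The 4 libraries of set 1 are high on both axes, at 5566 to 7863 CPM of ribosomal protein genes, and those of set 2 low, at 2581 to 3231.

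Whether TBI surgery changed the metallothioneins was asked of the libraries with and without it, averaged over BCAS. By the edgeR test, 0 of 19 metallothionein pairs passed the threshold, where 0.00914% of all pairs did. Without adjustment the edgeR test put 5 of the 19 under 0.05, against 3693 of all 87539 pairs. DESeq2 put 1 of the 19 there, against 700 of all pairs, and called 0. The log2 fold change in astrocyte-like nuclei was 0.36 ± 0.12 for Mt1 and 0.36 ± 0.14 for Mt2 (SE), both under 0.05 only before adjustment (edgeR adjusted p = 0.999731 for Mt1). Within set 1, TBI 1 and BCAS+TBI 2 were the 2 highest libraries for Mt1, while within set 2 the 4 libraries lay between 298 and 339 CPM. Mt3 in astrocyte-like nuclei had -0.04 ± 0.17, with TBI 1 the highest and TBI 2 the lowest of the 8 libraries.

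The other pairs under an unadjusted 0.05 were Mt1 in oligodendrocyte-like (0.45 ± 0.20), striatal projection neuron-like (0.71 ± 0.31) and excitatory neuron-like nuclei (0.31 ± 0.14). Mt1 in endothelial-like nuclei had -0.09 and Mt2 there -0.52 ± 0.31. A further fit took the log2 CPM of the ribosomal protein genes of each class and library as a term in place of the set. There 0 of 19 pairs were under an unadjusted 0.05, against 3625 of all 87539. The median over the 19 pairs was 0.01 against 0.22 before, and Mt1 in astrocyte-like nuclei had 0.15 ± 0.11. That term was chosen after the data were seen. With the set as the term, ribosomal protein genes were themselves higher with TBI surgery in 637 of 780 pairs (median 0.21), and 0 passed the threshold. A term that moves with the surgery can take up part of its difference, and the size of that part was not tested. Mt1 in astrocyte-like nuclei had 0.17 without control 1 and 0.52 without control 2. In the same contrast, Gfap, an intermediate filament gene of reactive astrocytes, rose in astrocyte-like nuclei by 0.94 ± 0.15 (edgeR adjusted p = 0.0186), the single gene of the reactive astrocyte list to pass among 8 tested there.

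**Figure D5:**
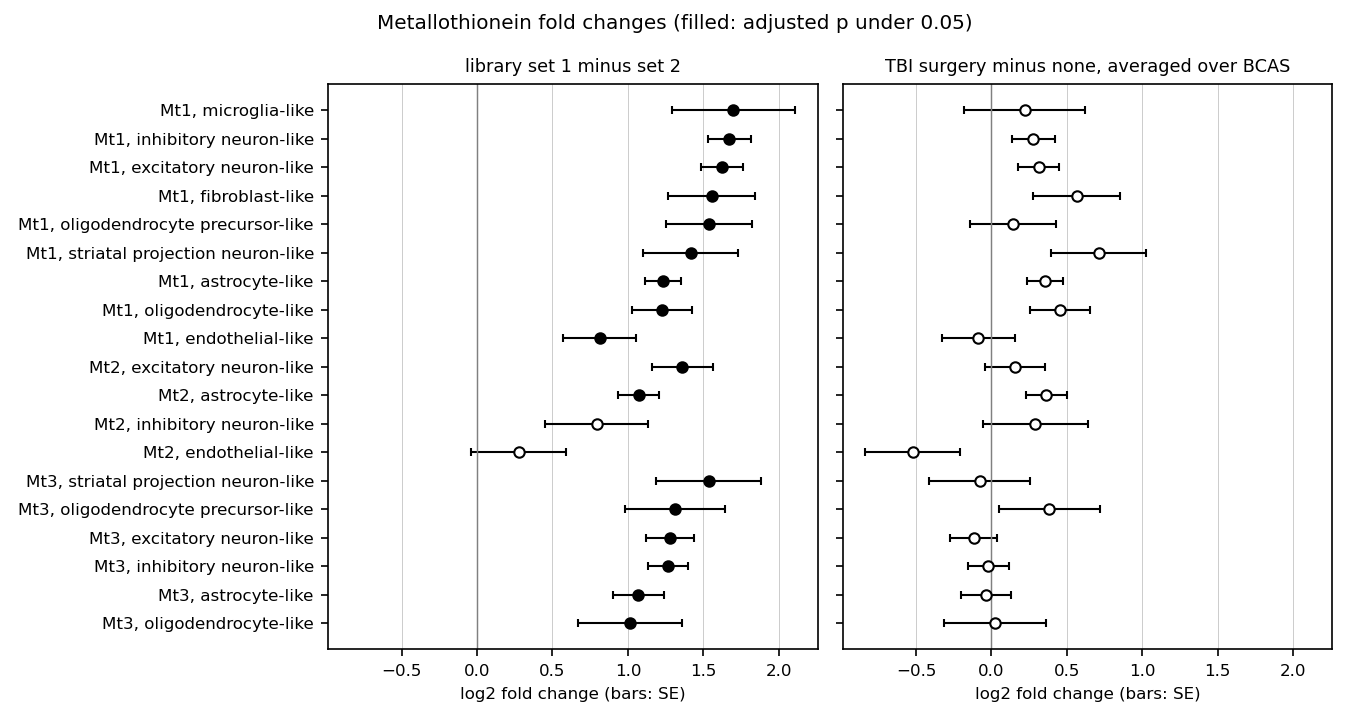
Log2 fold change with SE (x axes) of each of 19 pairs of a metallothionein gene and a class (rows), between library sets on the left and for TBI surgery averaged over BCAS on the right, filled where the edgeR adjusted p was under 0.05. On the left 17 pairs are filled, all to the right of 0, and on the right 0 are filled.

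BCAS surgery, averaged over TBI, gave 0 of 19 pairs past the threshold (0.00343% of all pairs), with a median log2 fold change of 0.00. Mt1, Mt2 and Mt3 in astrocyte-like nuclei had -0.05 ± 0.12, -0.11 ± 0.13 and 0.00 ± 0.17. An unadjusted edgeR p under 0.05 was found for Mt1 in oligodendrocyte precursor-like nuclei (0.67 ± 0.28) and Mt3 in inhibitory neuron-like nuclei (-0.30 ± 0.14). Of all 87539 pairs, 3178 were under that limit. The interaction of the surgeries, which asks whether TBI acts otherwise after BCAS, gave 0 of 19 pairs (0% of all pairs). At an unadjusted 0.05 it also gave 0, against 4261 of all pairs. The values in astrocyte-like nuclei were -0.13 ± 0.24 for Mt1, -0.16 ± 0.27 for Mt2 and 0.22 ± 0.33 for Mt3. DESeq2 called 0 in these as well.

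Group against group, 0 of 19 metallothionein pairs passed for TBI against control (0.00114% of all pairs), BCAS against control (0%), BCAS+TBI against control (0.00914%) and BCAS+TBI against TBI (0.00114%), in edgeR and in DESeq2. The first 3 of these comparisons share the control libraries. At an unadjusted edgeR p under 0.05 the comparisons, in the order given, held 3, 0, 3 and 1 metallothionein pairs. Of all 87539 pairs they held 3283, 3758, 3237 and 3718. For Mt1 in astrocyte-like nuclei the log2 fold change was 0.42 ± 0.17 in TBI, 0.01 ± 0.17 in BCAS and 0.30 ± 0.17 in BCAS+TBI against control, and -0.12 ± 0.17 in BCAS+TBI against TBI. The largest value among the pairs under 0.05 was 1.33 ± 0.46 for Mt1 in striatal projection neuron-like nuclei of BCAS+TBI against control, where the 2 control libraries had 14.7 and 18.9 CPM and the BCAS+TBI libraries 15.3 and 78.6.

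Other genes of metal handling were read in the contrast between library sets, where 33.8% of all pairs differed. Of the pairs in the zinc exporter list, which holds genes of the Slc30a family, 4 of 54 were higher and 8 lower in set 1. The lower ones were Slc30a7 and Slc30a9, such as Slc30a7 in astrocyte-like nuclei at -0.64 ± 0.20, and the higher ones Slc30a3 and Slc30a6 in excitatory and inhibitory neuron-like nuclei. Slc30a3, which loads zinc into synaptic vesicles, was highest in excitatory neuron-like nuclei (59.7 ± 18.0 CPM) and differed there by 0.61 ± 0.09. Slc30a1, the plasma membrane exporter and itself a target of MTF1, was highest in endothelial-like nuclei (161 ± 49.7 CPM) and had -0.33 ± 0.25 in astrocyte-like nuclei. Slc30a10, an exporter of manganese and zinc, was highest in mural-like nuclei and had 0.04 ± 0.12 in astrocyte-like ones.

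Zinc importers were higher in 9 and lower in 4 of 59 pairs. Those higher were Slc39a1, Slc39a3, Slc39a7 and Slc39a10, those lower Slc39a9, Slc39a11 and Slc39a14 in excitatory neuron-like nuclei and Slc39a10 in endothelial-like nuclei. Slc39a12, an importer of astrocytes, was highest in astrocyte-like nuclei at 540.4 ± 46.1 CPM. Choroid plexus-like nuclei were close, at 480 ± 118 CPM (332 to 709 over libraries). In astrocyte-like nuclei Slc39a12 ranged from 482 to 617 over the 8 libraries and had -0.06 ± 0.10 between the sets. Slc39a14 had 0.10 ± 0.17 in the same nuclei. The copper handling list was higher in 10 of 52 pairs and lower in 1, with Commd1, Atox1 and Cox17 higher and Atp7a lower.

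Of the regulators of metallothionein transcription, 4 of 41 pairs were higher in set 1, all Nfe2l2 (an oxidative stress factor), and 5 were lower, of Mtf1, Stat3 and Nr3c1, the glucocorticoid receptor. Mtf1 itself had -0.56 ± 0.28 in astrocyte-like nuclei (edgeR adjusted p = 0.125) and -0.31 ± 0.08 in excitatory neuron-like nuclei (adjusted p = 0.0129). Glucocorticoid-induced genes were higher in 3 and lower in 8 of 65 pairs. The median log2 fold change between sets was -0.04 for zinc exporters, 0.15 for importers, 0.19 for copper handling, -0.15 for the regulators and -0.02 for glucocorticoid-induced genes, against 1.28 for the metallothioneins. For TBI surgery averaged over BCAS, 0 pairs of these 5 lists passed.

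The genes whose level followed the metallothioneins most closely are given as a description, over points that share libraries and depth. Over the means of 11 classes, among 3551 genes, those nearest to Mt1 were S1pr1, Gstm1, Mt2, Ssr3 and Ppp2r5a, with Pearson r of 0.960 to 0.912. For Mt2 they were S1pr1, Gstm1, Mt1, Cyp2d22 and Amot. Mt3 had others, Acat3, Trps1, Camk2g, Entpd2 and Gdpd2 (0.915 to 0.888), and its r with Mt1 was 0.587. Over the 8 libraries in astrocyte-like nuclei, which lie in 2 clusters by set, the nearest to Mt1 were Fabp5, Arhgef1, Calr and the ribosomal protein genes Rps29 and Rps12. For Mt2 they were Gas5, Mt1, Fxyd1, Selenof and Rps2, and for Mt3 Por, Atraid, Kbtbd11, Aldoc and Prelid3a.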

How the data were processed

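The authors deposited 1 matrix of raw UMI counts for each library, and per the file headers the software was Cell Ranger 7.0.0. GRCm38, mm10 and Seurat are named in the submitters' processing notes, and the annotation release is not given in the sources used here. Barcodes under 500 UMIs or 300 genes, or over 5% mitochondrial UMIs, were dropped (4922 of 53390), and the 6% with the highest Scrublet score per library were removed as doublets. Clusters came from scanpy 1.11.5 (3000 variable genes without the metallothioneins, 30 components, 15 neighbours, Leiden at resolution 1) and were named by marker genes, with 10939 nuclei left unnamed. Counts were summed per library and class, and the 11 classes that reached 20 nuclei in each of the libraries entered a fit in edgeR 4.0.16 (TMM, filterByExpr with a minimum count of 10, terms for group and library set, tested on simulated data). Levels were compared on log2(CPM + 10).

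The members, lists and tests were chosen with earlier results of these data known. Named were the members in every class, genes of the metal lists past the threshold, 6 fixed metal genes (Mtf1, Slc30a1, Slc30a3, Slc30a10, Slc39a12, Slc39a14), and for each member the 5 genes of highest Pearson r over classes and over libraries, among genes of at least 50 CPM in astrocyte-like nuclei. Clusters 11 and 35, both astrocyte clusters and Gfap were named after their values were seen. Replicate numbers do not pair the samples of all groups. Intervals and shares cover counting error only.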

Additional observations from a re-analysis of the deposited data

How the results depend on the processing

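In the 7 contrasts between surgery groups, 0 metallothionein pairs passed the threshold under all 13 other settings and without each library in turn. With the replicate number as a block in place of the library set, 0 pairs passed in these contrasts as well. Same-numbered libraries of control, BCAS and TBI deviated together in astrocyte-like nuclei (r across genes of 0.613 to 0.732), while those of BCAS+TBI went against them (-0.782 to -0.698), so the numbers are not read as a pairing. Mt3 in astrocyte-like nuclei, at -0.04 for TBI surgery, changed sign without the set term (0.0677), under the replicate block (0.0777), with doublets kept (0.00537), at no more than 1% mitochondrial UMIs (0.0161) and with nuclei gated by their own markers (0.0478), and ran from -0.47 to 0.22 when libraries were left out. Mt1 ran from 0.15 to 0.54 and Mt2 from 0.14 to 0.53 over all settings.

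Between the library sets, 14 of 19 pairs passed in DESeq2, where 17722 of all 87539 pairs did. With no filter on low counts 18 of 33 passed (29925 of all 256880). With nuclei gated by their own markers 12 of 16 did (17620 of all 70260). Without each library in turn, the log2 fold change in astrocyte-like nuclei ran from 1.085 to 1.393 for Mt1, 0.88 to 1.24 for Mt2 and 0.79 to 1.35 for Mt3. A minimum count of 30 left 10 pairs, of which 10 passed (22319 of all 48271). At no more than 1% mitochondrial UMIs 11 of 12 passed (19750 of all 57164), since fewer pairs were tested. That last limit also left 15 neighbour pairs in the order of classes, of which 3 passed. Gating nuclei by their own markers turned the astrocyte minus endothelial difference to -0.32 (log2) for Mt1 and -0.11 for Mt2, and without the haemoglobin-led cluster it was 0.52 and 0.57, a setting added after seeing the data. Depth limits Mt2 most: 9 of 12 classes had fewer than 100 of its UMIs.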

Other observations

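Of the 6 clusters that stayed unnamed, those with markers of oligodendrocytes differed in their metallothionein level, given here with the libraries pooled. Cluster 18, 484 nuclei with markers of oligodendrocytes and astrocytes, had 262 CPM of Mt1, 79.4 of Mt2 and 86.0 of Mt3. Cluster 10, 1919 nuclei led by St18, Aspa and Mag at a median of 13550 UMIs, had 72.7, 16.2 and 46.3 CPM. Cluster 32, 114 nuclei with markers of oligodendrocytes and microglia, had 65.1, 14.2 and 19.8. The median doublet score was 0.0923 in cluster 18, 0.136 in cluster 10 and 0.0960 in cluster 32, against 0.00914 in the oligodendrocyte-like cluster 17. In cluster 10 the neuron markers Snap25 and Rbfox3 were detected in 93.2% of nuclei on average. Whether these clusters hold mixed nuclei was not tested. Cluster 4, 1821 nuclei at a median of 897 UMIs, had 94.7 CPM of Mt1 and 71.1 of Mt3, and ribosomal protein genes held 0.727% of its UMIs.

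The haemoglobin-led cluster 11 had Mt1 at 881, 734, 620 and 622 CPM in the set 1 libraries of control, BCAS, TBI and BCAS+TBI, and at 640.4, 637, 582 and 287 in those of set 2. Each value rests on 12 to 43 nuclei. The cluster itself was not tested, though 115 of its nuclei counted in the endothelial gate described above.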
